A study of Mus musculus with 12 samples.

Results

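The genes described here are the alcohol dehydrogenases, aldehyde dehydrogenases, aldo-keto reductases of subfamily 1, retinol dehydrogenases and the short-chain dehydrogenases named Dhrs. They were taken by symbol, as every row of the deposited count table whose name starts with Adh, Aldh, Rdh and a digit, or with Akr1 or Dhrs. The rule found 68 of 35869 symbols. No measured value entered it, but the families and the gene lists below were chosen with earlier results of these data known. By family these were 7 Adh, 21 Aldh, 16 Akr1, 13 Rdh and 11 Dhrs genes. A filter on low counts (filterByExpr of edgeR) left 51 of the 68, or 4, 17, 11, 10 and 9 by family, among 13987 genes tested. The other 17 had at most 90 counts over all libraries, and 4 of them had none.

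Polyadenylated RNA came from colonoids, closed epithelial cultures grown in gel from crypts of the colon of C57BL/6 mice, with no genetic change named in the labels. All groups were grown in medium with EGF and L-WRN conditioned medium, which supplies Wnt3a, R-spondin and noggin. The 4 groups of 3 libraries were left unstimulated or received IL-22 (1 ng/mL), IL-1b (100 ng/mL) or the pair together for 12 h, as recombinant mouse proteins. Neither the age of the mice nor the origin of the replicates (separate animals, cultures or wells) is given in the sources used here. The p-values therefore describe the variation among these libraries, which may be technical. The study concerned IL-1 receptor signalling within the intestinal epithelium.

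These enzymes move hydride between alcohols, aldehydes or ketones and the cofactors NAD and NADP. For vitamin A the first step, retinol to retinal, is reversible and is carried out by microsomal short-chain dehydrogenases (Rdh, Dhrs) and cytosolic alcohol dehydrogenases, and other short-chain enzymes run it backwards. The second step, retinal to retinoic acid, is irreversible and belongs to the Aldh1a enzymes. Retinoic acid made by gut epithelium is known to shape mucosal immune cells, and among them cells that make IL-22. Other aldehyde dehydrogenases clear acetaldehyde and lipid aldehydes or act in the breakdown of amino acids in mitochondria, and aldo-keto reductases reduce sugars, lipid aldehydes and steroids.

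Libraries held 4703902 to 5804033 counts, and levels are given in CPM, the count scaled to a common library size of 1000000 with TMM factors. Epithelial marker genes (Epcam, Cdh1, Krt8, Krt19, Vil1, Cdx2) summed to 1861 to 2368 CPM in every library. The 9 leukocyte markers, all above 0 in some library, summed to 4.0 to 6.45 CPM in unstimulated colonoids, 10.2 to 21.5 with IL-22, 13.8 to 68.9 with IL-1b and 12.3 to 20.2 with both. The 8 fibroblast and smooth muscle markers summed to 7.59 to 10.4, 7.73 to 13.6, 13.4 to 35.1 and 8.37 to 12.9 CPM in the same order. The 7 stem cell markers summed to 109 to 147, 166 to 193, 103 to 120.2 and 115 to 137 CPM. The 3 endothelial markers were lower in all libraries with IL-22 (1.11 to 1.65 CPM with IL-22 and 0.858 to 4.12 with both) than without it (4.74 to 6.95 unstimulated and 4.89 to 8.32 with IL-1b), and of 3 neural markers Sox10 was at 0 in every library. The 4 proliferation genes summed to 461 to 516 CPM in unstimulated colonoids and 485 to 735 with IL-22, and the 12 colonocyte markers to between 2958 and 3448 in every library. The part of these markers in the results below was not tested. In bulk RNA, fewer cells of a type and less RNA per cell cannot be told apart.

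With IL-22 alone, 6 of the 10 tested genes of the Rdh family rose, among them a pseudogene, and 0 fell. The Aldh, Akr1 and Dhrs families each held genes that rose and genes that fell. Of the 51 tested members, 12 rose and 7 fell (37.3%) by the quasi-likelihood test of edgeR, with p-values adjusted over all genes (Benjamini-Hochberg) and a threshold of 0.05. The same test called 22.2% of all genes tested, 11.7% higher and 10.5% lower. The median log2 change of the members was -0.01, and that of all genes was 0.00. The 6 Rdh genes that rose were Rdh1, Rdh9, Rdh10, Rdh11, Rdh16 and the pseudogene Rdh18-ps. Of these, Rdh1, Rdh9, Rdh16 and Rdh18-ps lie in a cluster on chromosome 10 and share exon bases with neighbouring gene models. Rdh11 is described below with the enzymes that reduce retinal. The median log2 change of the family was 0.38, and its members Rdh5 and Rdh13 had values of -0.33 and -0.15 that were not called. With DESeq2 size factors, with total-count scaling, and with the abundance trend removed (a smooth dependence, in each library, of the deviation in level on counts per base of exon), 6 of 10 also rose and 0 fell, with medians of 0.39, 0.33 and 0.34. Without IL-22 replicate 1, however, Rdh10 (0.26, edgeR adjusted p = 0.0690) and Rdh11 (0.29, 0.0611) lost their calls. The Rdh10 call was also lost without unstimulated replicate 2 or IL-22 replicate 2. The Adh family had 1 gene higher of 4, the Aldh family 2 higher and 4 lower of 17, the Akr1 family 2 and 2 of 11, and the Dhrs family 1 and 1 of 9.

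IL-1b alone changed 0 of the 51 members, at a background of 0.0715% of all genes called. Without adjustment 6 members had an edgeR p under 0.05, beside 1329 of 13987 genes tested. DESeq2 also called 0 members, beside 22 genes higher and 10 lower over all genes. With both cytokines 11 members rose and 8 fell against unstimulated colonoids (37.3%), beside 27% of all genes called, 13.6% higher and 13.4% lower. Against IL-1b alone, both cytokines gave 9 members higher and 9 lower (35.3%), beside 26.1% of all genes. IL-22 added to IL-1b therefore has its own controls here, whereas the comparisons with unstimulated colonoids share theirs. The 9 lower members include Adh7, which entered the test mainly through the IL-1b libraries, where it is highest. Of the 12 members higher with IL-22 alone, 8 were higher when IL-22 was added to IL-1b (66.7% of the first list and 88.9% of the second). Of the 7 lower with IL-22 alone, 5 were lower when it was added to IL-1b (71.4% and 55.6%). In all, 26 of the 51 were called in some comparison, 13 of these the same way in all 3 comparisons that add IL-22, and 25 in none. A call in some comparison was thus made for 51% of the members, beside 37.1% of all genes tested. Adh7 is counted there too, through its call against IL-1b. Counted by libraries alone, 14 members lay wholly above and 12 wholly below the unstimulated group with IL-22, where 17.7% and 17% of all genes did so. The counts were 3 above and 4 below with IL-1b (8.89% and 7.85% of all genes), 15 and 11 with the pair against unstimulated (21.8% and 20.5%), 4 and 7 for the pair against IL-22 (6.45% and 5.61%), and 14 and 15 for the pair against IL-1b (22.5% and 21.9%).

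**Figure D1:**
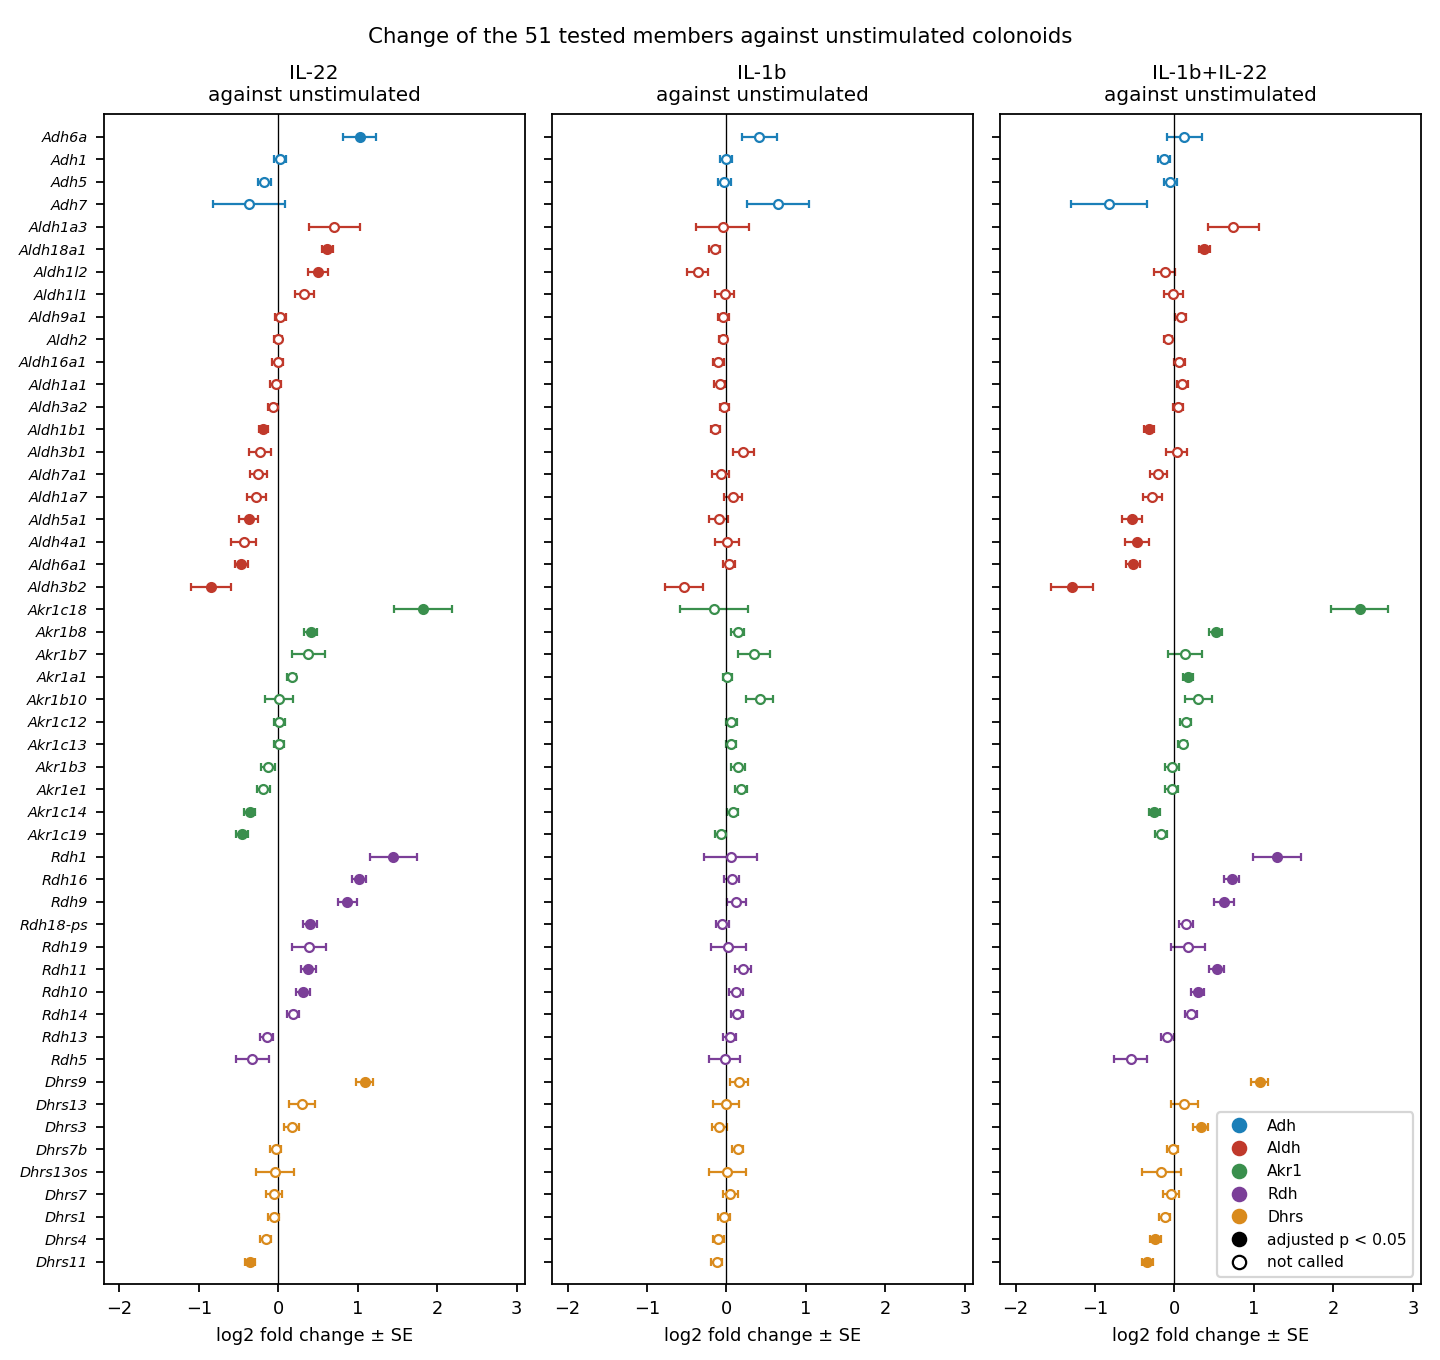
Log2 fold change with its standard error (horizontal axis) of each of the 51 tested members, in rows by family, for IL-22, IL-1b and both cytokines against unstimulated colonoids. Filled points passed the edgeR test at an adjusted p under 0.05. The Rdh rows lead to the right with IL-22 (6 filled points, none to the left), and the middle panel for IL-1b has no filled point.

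In unstimulated colonoids the highest levels per kb of exon belonged to steroid-reducing and detoxifying enzymes. Akr1c13 and Akr1c12, hydroxysteroid reductases of the same gene cluster, stood at 103 ± 6.46 and 102 ± 6.09 CPM per kb (SD, n = 3), a gap smaller than either SD. Dhrs11, a dehydrogenase of steroids and dicarbonyls, followed at 98 ± 2.02, and Adh1, the class I alcohol dehydrogenase, at 92.9 ± 4.47. The most abundant aldehyde dehydrogenase per kb was Aldh1b1, the mitochondrial acetaldehyde and retinal dehydrogenase, at 71.6 ± 3.93 CPM per kb. Among the Rdh genes the highest were Rdh14 at 43.7 ± 3.67 and the pseudogene Rdh18-ps at 36.8 ± 1.33. Adh7 was the lowest tested member at 0.421 ± 0.0863 CPM per kb.

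**Figure D2:**
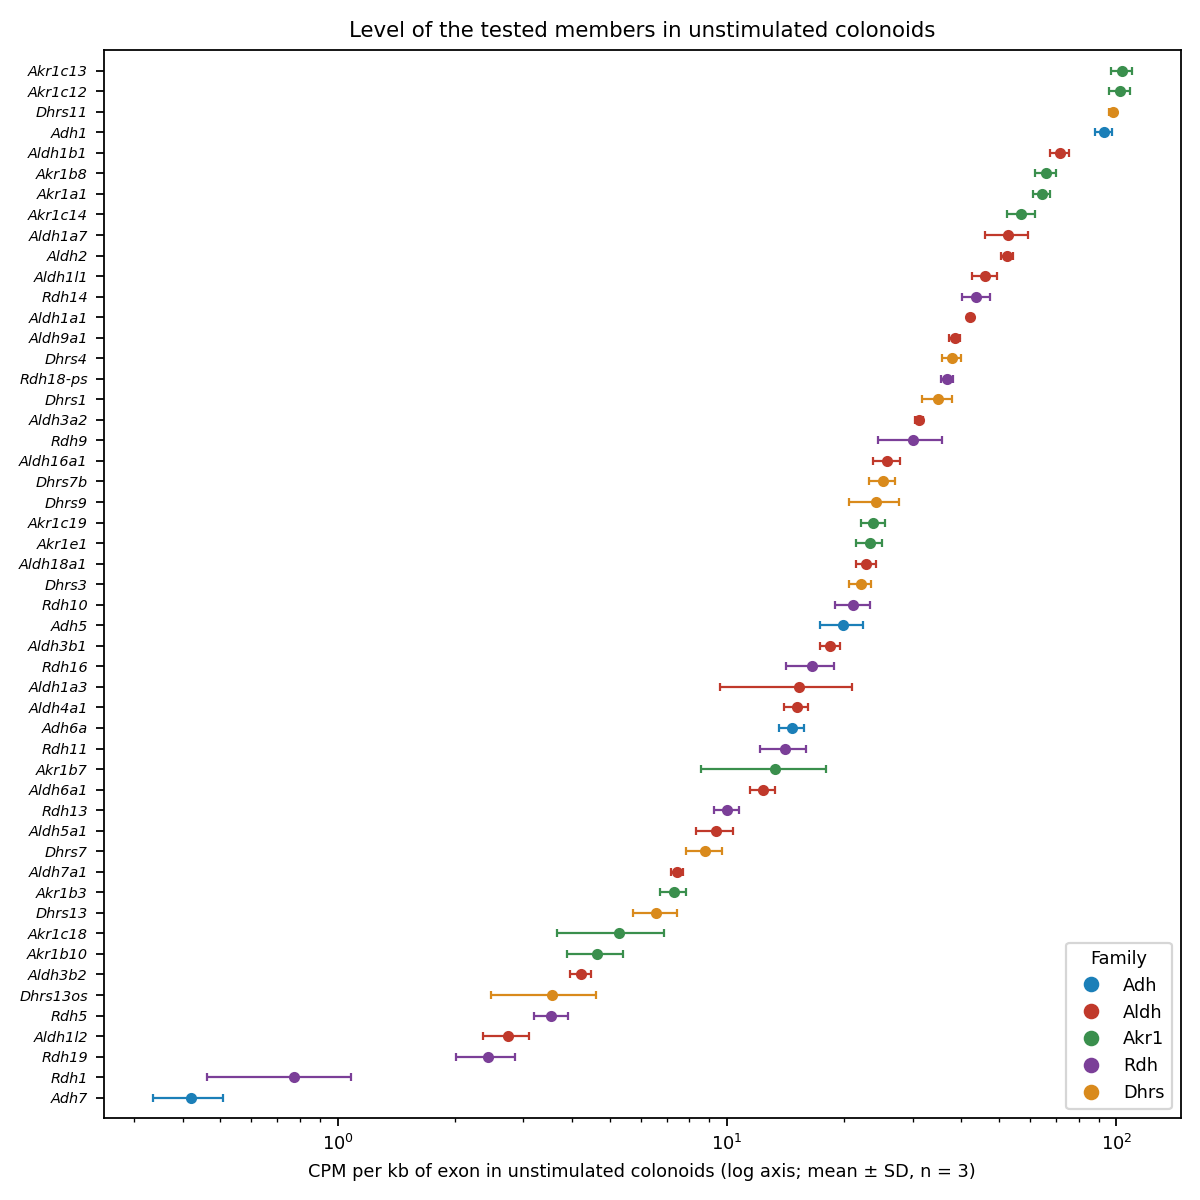
Mean level of the 51 tested members in unstimulated colonoids, in CPM per kb of exon on a log axis, with the SD over 3 libraries as bars and the family by colour. Akr1c13 and Akr1c12 lead at 103 and 102, and Adh7 is last at 0.421.

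The members that oxidise retinol rose with IL-22 or did not pass the test. Of 9 tested genes of this role, 5 rose with IL-22 and 0 fell, where 11.7% of all genes rose and 10.5% fell, and the median log2 change was 0.39. Their summed level was 629 ± 53.2 CPM in unstimulated colonoids, 967 ± 85.4 with IL-22, 869 ± 43.8 with both and 664 ± 9.70 with IL-1b alone (SD, n = 3). Rdh1, Rdh9 and Rdh16 all rose and lie side by side on chromosome 10 in mm10 with the pseudogene Rdh18-ps and the genes Rdh19 and Rdh7, within bases 127759721 to 127888817. The other two genes that rose are Dhrs9 on chromosome 2 and Rdh10 on chromosome 1. Promoter windows of Rdh1, Rdh9, Rdh16 and Dhrs9, and of the 2 other risers Adh6a and Aldh18a1 that hold a STAT motif, are printed from RefSeq (GRCm38.p6), from 250 bases before to 50 after the start, 5′ to 3′ on the gene's strand. IL-22 signals through STAT3, whose family binds TTCNNNGAA. Capitals mark that motif, and in Adh6a also the antioxidant response element TGACNNNGC, both searched on either strand. The windows are chr10:127759513-127759812 for Rdh1, chr10:127776155-127776454 for Rdh9, chr10:127800903-127801202 for Rdh16, chr2:69380212-69380511 for Dhrs9 and chr3:138313036-138313335 for Adh6a, all on the plus strand, and chr19:40588414-40588713 for Aldh18a1 on the minus strand.
Rdh1: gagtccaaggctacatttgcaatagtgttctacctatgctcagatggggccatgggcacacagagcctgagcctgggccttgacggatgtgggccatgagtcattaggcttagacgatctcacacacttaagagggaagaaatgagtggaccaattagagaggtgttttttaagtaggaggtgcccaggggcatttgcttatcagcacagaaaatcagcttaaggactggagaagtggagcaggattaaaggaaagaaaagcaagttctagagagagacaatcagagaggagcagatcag
Rdh9: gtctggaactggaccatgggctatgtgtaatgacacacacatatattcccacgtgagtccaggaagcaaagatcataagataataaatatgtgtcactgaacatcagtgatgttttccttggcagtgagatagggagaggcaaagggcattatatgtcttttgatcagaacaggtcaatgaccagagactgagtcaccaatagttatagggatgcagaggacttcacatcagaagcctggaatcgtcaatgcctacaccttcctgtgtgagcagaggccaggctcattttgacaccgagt
Rdh16: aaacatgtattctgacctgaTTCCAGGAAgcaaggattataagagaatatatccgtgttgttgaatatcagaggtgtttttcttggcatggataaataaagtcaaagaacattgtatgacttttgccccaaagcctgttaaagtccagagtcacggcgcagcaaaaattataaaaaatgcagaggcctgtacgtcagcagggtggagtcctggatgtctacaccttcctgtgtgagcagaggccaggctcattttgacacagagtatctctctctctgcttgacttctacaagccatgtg
Dhrs9: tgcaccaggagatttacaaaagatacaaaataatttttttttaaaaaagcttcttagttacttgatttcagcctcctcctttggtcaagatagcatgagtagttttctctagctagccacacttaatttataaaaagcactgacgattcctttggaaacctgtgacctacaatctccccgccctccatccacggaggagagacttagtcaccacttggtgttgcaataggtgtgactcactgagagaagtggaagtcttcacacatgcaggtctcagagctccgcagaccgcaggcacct
Adh6a: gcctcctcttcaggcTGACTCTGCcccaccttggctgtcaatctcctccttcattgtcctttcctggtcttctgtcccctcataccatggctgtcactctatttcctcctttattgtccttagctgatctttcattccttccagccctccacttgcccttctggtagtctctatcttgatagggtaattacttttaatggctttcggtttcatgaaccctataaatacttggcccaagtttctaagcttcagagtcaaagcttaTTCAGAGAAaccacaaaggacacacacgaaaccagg
Aldh18a1: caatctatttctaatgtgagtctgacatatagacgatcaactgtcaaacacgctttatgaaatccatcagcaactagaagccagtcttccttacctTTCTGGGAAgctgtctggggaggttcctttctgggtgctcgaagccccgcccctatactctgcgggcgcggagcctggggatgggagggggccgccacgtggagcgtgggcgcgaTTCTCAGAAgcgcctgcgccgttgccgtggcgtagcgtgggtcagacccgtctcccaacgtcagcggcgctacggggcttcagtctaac

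Rdh16 holds the STAT letters at bases 21 to 29 of its window, Adh6a at 265 to 273, and Aldh18a1 at 97 to 105 and 212 to 220, while the windows of Rdh1, Rdh9 and Dhrs9 have no match. The Rdh9 and Rdh16 windows were identical at 203 bases (59.9% of their alignment), against 158 bases for Rdh1 and Rdh9 (47.2%) and 161 for Rdh16 and Dhrs9 (47.8%). They share an unbroken run of 43 bases, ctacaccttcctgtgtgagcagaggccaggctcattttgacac, at bases 218 to 260 of the Rdh16 window and 253 to 295 of the Rdh9 window. At the place of the Rdh16 motif, Rdh9 reads GTCCAGGAA at bases 57 to 65, which differs by T1G, counted from 1 at the first base of the motif with the base of Rdh16 first. Among the 12 members higher with IL-22, 9 have a window in the table and 3 hold the STAT motif (Rdh16, Adh6a, Aldh18a1). Of the 6 with a window among the 7 lower members, 1 holds it (Akr1c19), and of 26 uncalled members with a window 1 does (Aldh9a1). With no chromosome left out, the STAT motif is present in 8.30% of all 32851 promoters in the table and in 6 of the 60 windows of members. The antioxidant element is in 12.4% of all promoters and 6 of 60. A pair of AGGTCA letters with 5 bases between them, which binds retinoic acid receptors, is in 0.00913% of promoters and the HNF4A motif CAAAGTCCA in 0.475%, and neither was found in the windows of members. A match describes letters and is no measured binding.

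Rdh16 oxidises retinol and 3-alpha-hydroxysteroids. Its levels were 86.8, 106 and 115 CPM in unstimulated cultures, 213, 221 and 191 with IL-22, 108, 107 and 108 with IL-1b, and 183, 154 and 169.7 with both. The 6 libraries with IL-22 lay above the 6 without it. Against unstimulated the log2 change was 1.02 ± 0.09 (SE) with IL-22 (edgeR adjusted p = 3.71e-06), 0.72 ± 0.09 with both (6.61e-05) and 0.07 ± 0.09 with IL-1b (0.826). Its 3 libraries with both lay below the 3 with IL-22 alone, a log2 change of -0.30 ± 0.09 that was not called (edgeR adjusted p = 0.255).

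Rdh9, a relative of Rdh16, read 86.1, 112 and 126 CPM in unstimulated cultures, 199, 219 and 174 with IL-22, 106, 123 and 123 with IL-1b, and 178, 159 and 162 with both. Here too the libraries with IL-22 did not overlap those without it. It rose by 0.87 ± 0.12 with IL-22 and by 0.62 ± 0.12 with both on the log2 scale (edgeR adjusted p = 2.55e-04 and 0.00214). Rdh1, which oxidises retinol, was the rarest of the group at 4.10, 3.27 and 1.71 CPM in unstimulated cultures, 8.05, 8.86 and 8.11 with IL-22, 2.02, 3.95 and 3.49 with IL-1b, and 9.28, 7.45 and 5.58 with both. Again no library without IL-22 reached the level of any library with it, and the log2 change was 1.45 ± 0.30 with IL-22 and 1.29 ± 0.30 with both (edgeR adjusted p = 0.00304 and 0.00568). Rdh18-ps, annotated as a transcribed pseudogene, read 36.0, 33.6 and 35.7 CPM in unstimulated cultures, 42.7, 47.2 and 48.8 with IL-22, 32.7, 36.7 and 32.4 with IL-1b, and 38.5, 39.0 and 39.0 with both. Its libraries with IL-22 were the higher ones in either setting, with smaller gaps than for the coding genes. It rose with IL-22 by 0.40 ± 0.08 (edgeR adjusted p = 0.00355), and with both it was 0.15 ± 0.09 and not called (0.219).

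These neighbours share sequence with overlapping gene models and with each other, and their counts are uncertain for that reason. In the GENCODE M21 annotation 2302 of the 3590 exon bases of Rdh9 also belong to the gene model Rdh16f1 on the same strand, and 68.3% of the 50-base stretches of its transcripts occur in transcripts of other genes. The share was 63.5% for Rdh18-ps, which lies within the span of Rdh16 and has 381 exon bases in common with it, 18.6% for Rdh19, 15.6% for Rdh1 and 14% for Rdh16. The partner with the largest share was Rdh16f1 for Rdh9 (66.7%) and for Rdh1 (11.7%), and Rdh9 for Rdh16 (6.28%). How reads that fit several genes were counted is not given in the sources used here. Of the 5 tested genes of this cluster, 4 rose with IL-22, beside 11.7% of all genes. Rdh19 was 0.39 ± 0.21 on the log2 scale and not called (edgeR adjusted p = 0.219), and Rdh7 had 48 counts in all and was not tested.

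Dhrs9, a retinol dehydrogenase that has no close copy here (0.213% of its 50-base stretches are found elsewhere), lies at 69380445 to 69404533 on chromosome 2. Its levels were 105, 87.3 and 117 CPM in unstimulated cultures, 232, 232 and 194 with IL-22, 132, 103 and 111 with IL-1b, and 215, 217 and 218 with both. The lowest library with IL-22 stood above the highest without it. The log2 change was 1.09 ± 0.11 with IL-22, 1.07 ± 0.11 with both, and 0.91 ± 0.11 for both against IL-1b alone (edgeR adjusted p = 1.30e-05, 1.12e-05 and 4.37e-05). Rdh10, the main retinol dehydrogenase of the embryo, read 91.2, 77.5 and 94.4 CPM in unstimulated cultures, 115, 111 and 99.8 with IL-22, 98, 95.4 and 92.6 with IL-1b, and 109, 97.0 and 116 with both. The libraries with IL-22 lay above the unstimulated ones, but those with both overlapped the ones with IL-1b. It rose by 0.31 ± 0.09 with IL-22 and by 0.29 ± 0.09 with both (edgeR adjusted p = 0.0177 and 0.0202). Both calls depended on single libraries. The first was lost without unstimulated replicate 2 (0.23, edgeR adjusted p = 0.0966), IL-22 replicate 1 (0.26, 0.0690) or IL-22 replicate 2 (0.30, 0.0602). The second was lost without unstimulated replicate 2 (0.21, edgeR adjusted p = 0.103) or without replicate 1 (0.28, 0.0600) or 3 (0.23, 0.0991) of both cytokines, and with the abundance trend removed (0.25, 0.0527).

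**Figure D3:**
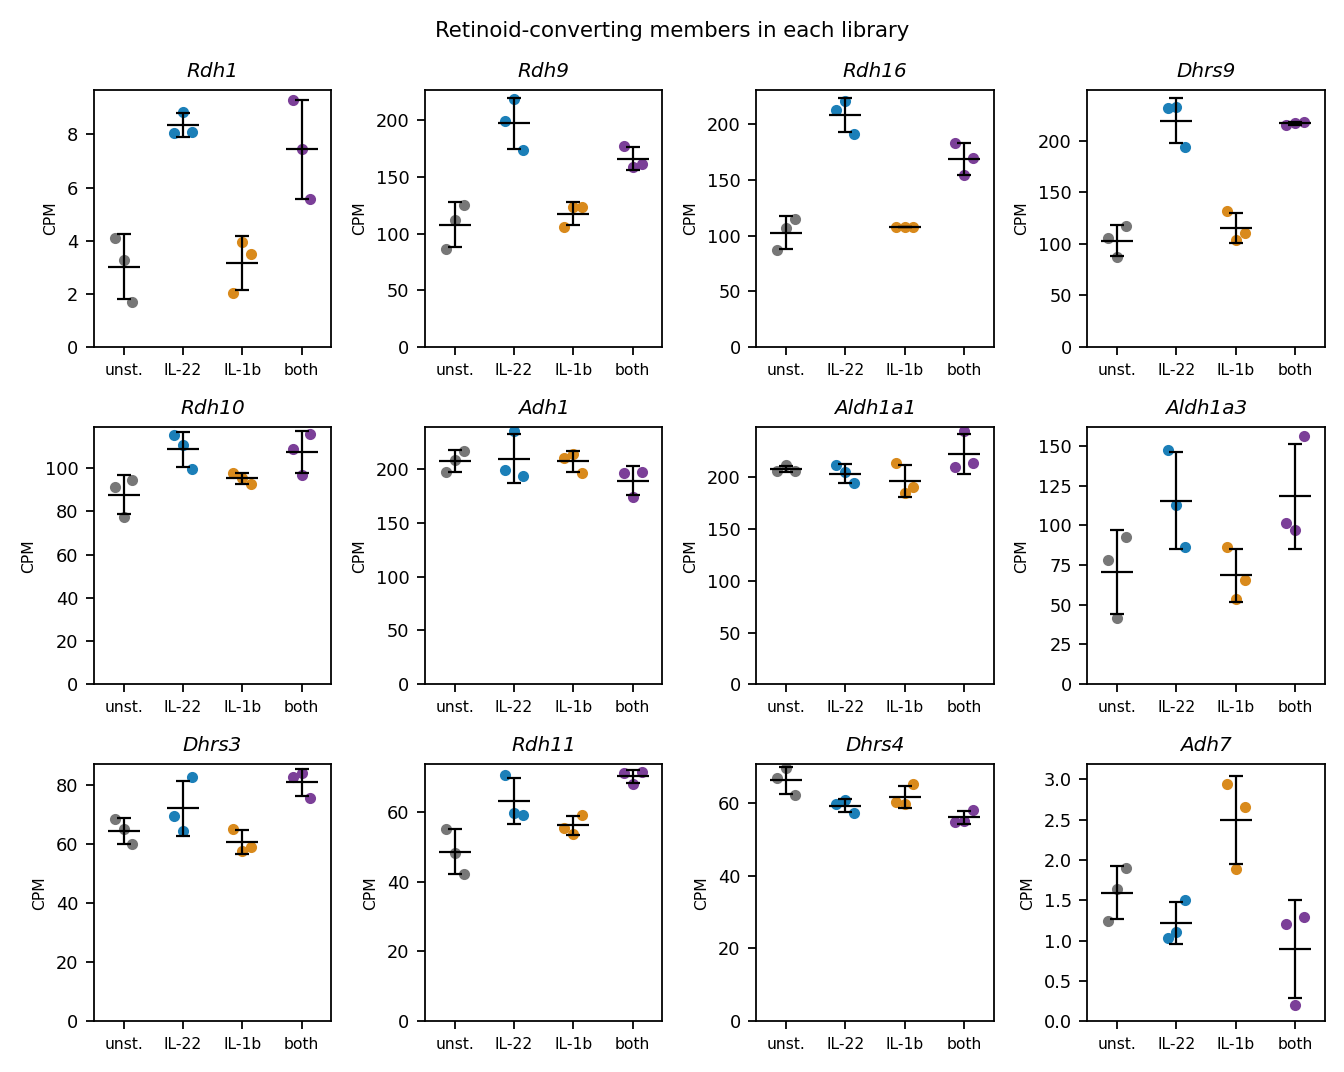
CPM of 12 retinoid-converting members in each library (points, replicates 1 to 3 from left to right within a group), with the mean and SD over 3 libraries in black. In the first 4 panels (Rdh1, Rdh9, Rdh16, Dhrs9) every library with IL-22 lies above every library without it.

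The alcohol dehydrogenases that also use retinol did not follow. Adh1, far more abundant than the Rdh genes per kb, read 197, 208 and 217 CPM in unstimulated cultures, 199.7, 236 and 193 with IL-22, 211, 214 and 197 with IL-1b, and 197, 174 and 198 with both. Its groups overlapped, and its log2 change was 0.01 ± 0.08 with IL-22 and -0.13 ± 0.08 with both (edgeR adjusted p = 0.914 and 0.215). With the abundance trend removed, the second became -0.24 and passed the test (edgeR adjusted p = 0.00451). Adh7, the class IV enzyme of stomach and oesophagus, was near the detection limit at 1.25, 1.64 and 1.90 CPM in unstimulated cultures, 1.03, 1.11 and 1.51 with IL-22, 2.94, 1.88 and 2.66 with IL-1b, and 1.21, 0.196 and 1.29 with both. The 3 libraries with IL-1b alone lay above the 3 with both, and the lowest of them was level with the highest unstimulated one. The log2 difference of both against IL-1b alone was -1.47 ± 0.44, and it counts among the 9 members called lower there (edgeR adjusted p = 0.0237). Adh7 entered the test mainly through the IL-1b libraries, where it is highest, so the difference is given as a description. The call was lost without IL-1b replicate 1 (-1.35, 0.0737) or 3 (-1.43, 0.0707), without replicate 2 of both cytokines (-0.99, 0.0870), with DESeq2 (-1.49, adjusted p = 0.0883) and with the trend removed (-1.17, edgeR adjusted p = 0.0732). Rdh5, which oxidises 11-cis-retinol in the eye, was -0.33 ± 0.20 with IL-22 and not called, and 720 of its exon bases are shared with Bloc1s1.

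Of the Aldh1a enzymes best known for making retinoic acid, Aldh1a1 and Aldh1a3 were tested, and neither was called by edgeR in any comparison. Aldh1b1, a mitochondrial enzyme that can also oxidise retinal, fell and is described with the mitochondrial genes. Aldh1a1 read 206, 212 and 207 CPM in unstimulated cultures, 212, 205 and 194 with IL-22, 214, 185 and 190.4 with IL-1b, and 210.1, 245 and 214 with both, and its groups overlapped in each comparison with unstimulated. For both against IL-1b its change was 0.18 ± 0.07 (edgeR adjusted p = 0.0615), which passed without IL-1b replicate 1 (0.25, 0.0240), without replicate 1 of both cytokines (0.23, 0.0467) and without the filter (0.19, 0.0338). Aldh1a3 varied widely between replicates, with 78.2, 41.5 and 92.4 CPM in unstimulated cultures, 147, 113 and 86.4 with IL-22, 86.4, 53.4 and 65.4 with IL-1b, and 101, 97.2 and 156 with both. Its log2 change was 0.71 ± 0.32 with IL-22 and 0.74 ± 0.32 with both (edgeR adjusted p = 0.154 and 0.120), and its variance within groups was 41.6 times its mean count. Aldh1a2, the form of mesenchyme and dendritic cells, had 5 counts over all 12 libraries, and Aldh8a1 had 0. Neither was tested, and a count that low does not show that a gene is absent.

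Enzymes known to reduce retinal back to retinol moved in both directions. Rdh11 read 55.2, 48.2 and 42.3 CPM in unstimulated cultures, 70.6, 59.6 and 59.2 with IL-22, 55.3, 53.8 and 59.2 with IL-1b, and 71.2, 68.0 and 71.4 with both. The 3 unstimulated libraries lay below all libraries with IL-22. It rose by 0.38 ± 0.10 with IL-22, by 0.53 ± 0.10 with both, and by 0.32 ± 0.09 for both against IL-1b (edgeR adjusted p = 0.0118, 9.26e-04 and 0.0201). The first call was lost without IL-22 replicate 1 (0.29, 0.0611), and the call against IL-1b without IL-1b replicate 1 (0.31, 0.0612) or 2 (0.29, 0.0697), without replicate 1 (0.31, 0.0558) or 3 (0.30, 0.0676) of both cytokines, and under total-count scaling (0.26, 0.0620). Rdh14 read 59.3, 70.2 and 64.5 CPM in unstimulated cultures, 71.2, 78.2 and 70.5 with IL-22, 76.1, 67.3 and 69.8 with IL-1b, and 76.3, 71.9 and 75.1 with both. Although its libraries with IL-22 lay just above the unstimulated ones, its change of 0.18 ± 0.08 was not called (edgeR adjusted p = 0.111).

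Dhrs3, a retinal reductase that retinoic acid is known to induce, read 68.4, 65.1 and 59.9 CPM in unstimulated cultures, 69.6, 64.5 and 82.6 with IL-22, 65.2, 57.6 and 59.0 with IL-1b, and 82.9, 84.3 and 75.5 with both. The libraries with both lay above all unstimulated and IL-1b libraries, while those with IL-22 alone overlapped them. It rose by 0.33 ± 0.09 with both against unstimulated and by 0.42 ± 0.09 against IL-1b (edgeR adjusted p = 0.0155 and 0.00382). IL-22 alone gave 0.17 ± 0.09, which was not called (0.220). The first call was lost without unstimulated replicate 3 (0.28, edgeR adjusted p = 0.0567) or replicate 1 of both cytokines (0.31, 0.0509). Both cytokines against IL-22 gave 0.16 ± 0.09 (edgeR adjusted p = 0.605), so a difference between them was not shown. Dhrs4, a peroxisomal NADPH-dependent retinal reductase, read 66.8, 69.5 and 62.2 CPM in unstimulated cultures, 59.7, 60.7 and 57.3 with IL-22, 60.3, 59.6 and 65.2 with IL-1b, and 54.9, 55.1 and 58.1 with both. The libraries with both lay below all others except 1 with IL-22 alone. It fell by 0.24 ± 0.07 with both (edgeR adjusted p = 0.0184). The call was lost without unstimulated replicate 2 (-0.20, 0.0844) or replicate 1 of both cytokines (-0.23, 0.0622), with DESeq2 (-0.24, adjusted p = 0.0660) and without the filter (-0.23, edgeR adjusted p = 0.0644).

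Adh6a rose with IL-22 alone and was not called when IL-22 was added to IL-1b, as held also for Aldh1l2, Rdh10 and Rdh18-ps among the members that rose and for Akr1c19 and Aldh3b2 among those that fell. It lies on chromosome 3 between Adh1 and Adh6b in a cluster of 7 alcohol dehydrogenase genes. Its levels were 39.9, 34.4 and 37.7 CPM in unstimulated cultures, 57.6, 103 and 67.7 with IL-22, 46.9, 52.1 and 50.6 with IL-1b, and 53.3, 31.8 and 37.1 with both. The 3 libraries with IL-22 alone lay above all others, and IL-22 replicate 2 was the highest. The log2 change was 1.02 ± 0.21 with IL-22 (edgeR adjusted p = 0.00444), 0.12 ± 0.22 with both (0.716) and 0.42 ± 0.22 with IL-1b (0.562). Both against IL-22 gave -0.90 ± 0.21 (edgeR adjusted p = 0.155), and the interaction of the cytokines gave -1.32 ± 0.30 (0.970). Neither was called by edgeR, whereas the DESeq2 Wald test called both at -0.91 (adjusted p = 0.00439) and -1.33 (0.0326). The other tested Adh gene, Adh5, which clears formaldehyde and S-nitrosoglutathione, read 112, 118 and 91.8 CPM in unstimulated cultures, 95.8, 90.8 and 97.7 with IL-22, 109, 97.3 and 109 with IL-1b, and 101, 103 and 107 with both. Its unstimulated libraries overlapped each other group, and it was not called, although without unstimulated replicate 3 it passed with IL-22 (-0.28, edgeR adjusted p = 0.0130).

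No member passed the edgeR test for both cytokines against IL-22 alone or for the interaction. The background was 0.0572% of all genes for the first (0.0429% higher and 0.0143% lower) and 0% for the second. Without adjustment 8 members had an edgeR p under 0.05 in the first, beside 1407 of 13987 genes, and 5 in the second, beside 688. DESeq2 called 1 member in each, which was Adh6a. Over all genes it called 27 higher and 60 lower in the first, and 0 higher and 4 lower in the second. The smallest edgeR adjusted p of a member for both against IL-22 was that of Aldh1l2 at -0.62 ± 0.13 (0.104). Next came Adh6a, and then Akr1c19 at 0.29 ± 0.08 (0.180).

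The mitochondrial aldehyde dehydrogenases of amino acid and acetaldehyde metabolism split. Of 8 tested genes, 2 rose and 3 fell with IL-22, and 1 rose and 4 fell with both, so that 62.5% were called in each, beside 22.2% and 27% of all genes. Aldh18a1, which makes pyrroline-5-carboxylate on the way to proline, read 97.8, 93.1 and 86.9 CPM in unstimulated cultures, 143, 138 and 145 with IL-22, 78.1, 92.2 and 80.8 with IL-1b, and 127, 120.0 and 114 with both. All libraries with IL-22 lay above all without it, and those with IL-22 alone were the highest. The log2 change was 0.62 ± 0.07 with IL-22, 0.38 ± 0.07 with both and 0.52 ± 0.07 for both against IL-1b (edgeR adjusted p = 2.61e-05, 0.00133 and 1.16e-04).

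Aldh4a1 acts in the opposite direction, on pyrroline-5-carboxylate in proline breakdown, and read 72.7, 79.8 and 69.6 CPM in unstimulated cultures, 44.2, 50.7 and 68.5 with IL-22, 68.0, 79.4 and 76.2 with IL-1b, and 53.9, 63.5 and 42.5 with both. All 6 libraries with IL-22 lay below the unstimulated ones. It fell with both by 0.47 ± 0.15 against unstimulated and by 0.48 ± 0.15 against IL-1b (edgeR adjusted p = 0.0374 and 0.0351). With IL-22 alone it was -0.44 ± 0.15 and missed the threshold (0.0575), which it passed with total-count scaling (-0.49, edgeR adjusted p = 0.0302), with DESeq2 (-0.44, adjusted p = 0.0374), and without IL-22 replicate 3 (-0.64, edgeR adjusted p = 0.00481) or replicate 2 (-0.44, 0.0385) or 3 (-0.44, 0.0354) of both cytokines. The call with both against unstimulated was lost without unstimulated replicate 1 (-0.48, edgeR adjusted p = 0.0719) or 2 (-0.41, 0.120), IL-1b replicate 3 (-0.47, 0.0506), or replicate 1 (-0.48, 0.0813) or 3 (-0.34, 0.141) of both cytokines. The call against IL-1b was lost without IL-1b replicate 2 (-0.43, edgeR adjusted p = 0.103) or 3 (-0.47, 0.0934), or replicate 1 (-0.49, 0.0745) or 3 (-0.35, 0.126) of both cytokines. Without the filter, neither passed (edgeR adjusted p = 0.125 and 0.116). On the same strand, 1595 exon bases are shared with the gene model Gm21969, so the count is uncertain.

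Aldh6a1 oxidises methylmalonate semialdehyde in the breakdown of valine and thymine. It read 72.0, 76.6 and 66.0 CPM in unstimulated cultures, 49.6, 47.0 and 58.5 with IL-22, 71.3, 72.2 and 75.8 with IL-1b, and 50.2, 51.4 and 47.4 with both. No library with IL-22 reached the level of any without it. It fell by 0.47 ± 0.09 with IL-22, by 0.53 ± 0.09 with both and by 0.56 ± 0.09 for both against IL-1b (edgeR adjusted p = 0.00132, 4.13e-04 and 2.83e-04). Of its exon bases 1078 lie opposite Bbof1.

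Aldh5a1 removes succinic semialdehyde, a product of the transmitter GABA. It read 59.5, 49.8 and 49.1 CPM in unstimulated cultures, 39.0, 37.9 and 45.5 with IL-22, 42.8, 51.9 and 53.4 with IL-1b, and 41.6, 31.4 and 36.5 with both. The libraries with IL-22 lay below the unstimulated ones. It fell by 0.37 ± 0.12 with IL-22, by 0.54 ± 0.12 with both and by 0.44 ± 0.12 for both against IL-1b (edgeR adjusted p = 0.0391, 0.00470 and 0.0160). The IL-22 call was lost without unstimulated replicate 1 (-0.28, edgeR adjusted p = 0.160) or 2 (-0.41, 0.0620) or IL-22 replicate 1 (-0.34, 0.104) or 2 (-0.32, 0.139), with DESeq2 (-0.37, adjusted p = 0.0559), with the trend removed (-0.31, edgeR adjusted p = 0.0782) and with a replicate block (-0.37, 0.0514). The call against IL-1b was lost without IL-1b replicate 2 (-0.40, edgeR adjusted p = 0.0550) or 3 (-0.38, 0.0787) or replicate 2 of both cytokines (-0.34, 0.0722). Of its exon bases 999 lie opposite other gene models.

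Aldh1b1 read 169.6, 170.0 and 154 CPM in unstimulated cultures, 141, 146 and 146 with IL-22, 144, 153 and 151 with IL-1b, and 132, 139 and 125 with both. All cytokine libraries lay below the unstimulated ones, those with both being lowest. It fell by 0.19 ± 0.06 with IL-22, by 0.32 ± 0.06 with both and by 0.18 ± 0.06 for both against IL-1b (edgeR adjusted p = 0.0289, 9.62e-04 and 0.0337), and IL-1b alone gave -0.14 ± 0.06, which was not called (0.483). With the trend removed the changes with IL-22 alone and against IL-1b became -0.29 and -0.28. The IL-22 call was lost without unstimulated replicate 1 (-0.17, edgeR adjusted p = 0.0895) or 2 (-0.17, 0.116) or IL-22 replicate 1 (-0.18, 0.0808) or 2 (-0.19, 0.0626). It was also lost with DESeq2 (adjusted p = 0.0512), with no filter (edgeR adjusted p = 0.0639) and with the 6 libraries alone (0.0747). The call against IL-1b was lost without IL-1b replicate 2 (-0.17, edgeR adjusted p = 0.0980) or 3 (-0.17, 0.0975), without replicate 1 (-0.18, 0.0807) or 3 (-0.15, 0.122) of both cytokines, with DESeq2 (adjusted p = 0.0581) and with no filter (edgeR adjusted p = 0.0696).

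Aldh2, the main mitochondrial acetaldehyde dehydrogenase, read 258, 275 and 274 CPM in unstimulated cultures, 257, 282 and 265 with IL-22, 260.4, 274 and 249 with IL-1b, and 259, 256 and 248 with both. These groups overlapped, and the change was -0.01 ± 0.05 with IL-22 and -0.08 ± 0.05 with both (edgeR adjusted p = 0.950 and 0.272). With the trend removed the second was -0.17 (0.00808). Aldh1l2, which oxidises 10-formyltetrahydrofolate in mitochondria, read 23.0, 21.1 and 17.4 CPM in unstimulated cultures, 28.3, 32.8 and 26.0 with IL-22, 15.1, 15.6 and 17.1 with IL-1b, and 19.0, 19.8 and 17.8 with both. It was highest in the 3 libraries with IL-22 alone and lowest in the 3 with IL-1b alone. It rose with IL-22 by 0.50 ± 0.13 (edgeR adjusted p = 0.0117), a call lost without IL-22 replicate 2 (0.40, 0.0608). With both it was -0.12 ± 0.13 and not called (edgeR adjusted p = 0.529). For both against IL-22 alone, it passed only without the filter among the settings tried (-0.62, 0.0331). Of its exon bases 1056 lie opposite D10Wsu102e. Aldh7a1, which acts in lysine breakdown, was -0.25 ± 0.11 with IL-22 and not called (edgeR adjusted p = 0.118), but passed without IL-22 replicate 3 (-0.40, 0.0107).

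Beside 11.7% of all genes higher and 10.5% lower with IL-22, 0 of 7 tested genes among the other aldehyde dehydrogenases rose and 1 fell. This was Aldh3b2, an enzyme of lipid aldehydes, at 9.62, 8.55 and 8.91 CPM in unstimulated cultures, 7.02, 4.21 and 3.77 with IL-22, 6.06, 4.70 and 7.82 with IL-1b, and 3.03, 4.31 and 3.65 with both. All cytokine libraries lay below the unstimulated ones. It fell by 0.85 ± 0.25 with IL-22 and by 1.29 ± 0.26 with both (edgeR adjusted p = 0.0247 and 0.00211). The first call was lost without unstimulated replicate 1 (-0.80, edgeR adjusted p = 0.0714) or 2 (-0.89, 0.0532) or IL-22 replicate 2 (-0.75, 0.0974) or 3 (-0.68, 0.0847), with DESeq2 (-0.85, adjusted p = 0.0554) and with the trend removed (-0.71, edgeR adjusted p = 0.0532). For both against IL-1b it was not called, but passed with total-count scaling (-0.82, edgeR adjusted p = 0.0399). There it also passed without IL-22 replicate 1 (-0.76, 0.0285) or 3 (-0.76, 0.0445) or IL-1b replicate 2 (-0.92, 0.0343). Of its 50-base stretches 24.2% are found in other genes, mostly Aldh3b3. Aldh1a7, a close relative of Aldh1a1 on chromosome 19, read 92.8, 115 and 118 CPM in unstimulated cultures, 105, 85.3 and 78.6 with IL-22, 119, 107 and 121 with IL-1b, and 100.1, 81.5 and 86.9 with both. The 3 with both and the 3 with IL-22 lay below the 3 with IL-1b. It fell for both against IL-1b by 0.37 ± 0.12 (edgeR adjusted p = 0.0323). This call was lost without IL-1b replicate 1 (-0.35, 0.0870) or 3 (-0.34, 0.104), without replicate 2 (-0.30, 0.111) or 3 (-0.36, 0.0837) of both cytokines, and without the filter (-0.36, 0.0704).

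The aldo-keto reductases of the Akr1c cluster on chromosome 13 went separate ways. Akr1c18, which inactivates progesterone as a 20-alpha-hydroxysteroid dehydrogenase, showed the largest rise of any member. It read 8.55, 5.82 and 4.74 CPM in unstimulated cultures, 17.6, 16.2 and 33.6 with IL-22, 5.15, 3.20 and 8.65 with IL-1b, and 34.5, 38.4 and 23.8 with both. The 6 libraries with IL-22 lay above the 6 without it, with a wide spread among them. The log2 change was 1.82 ± 0.37 with IL-22, 2.33 ± 0.36 with both and 2.49 ± 0.36 for both against IL-1b (edgeR adjusted p = 0.00376, 4.76e-04 and 3.69e-04).

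Akr1c14, a 3-alpha-hydroxysteroid dehydrogenase next to it, fell. Its levels were 172, 201 and 181 CPM in unstimulated cultures, 133, 143 and 156 with IL-22, 197, 188 and 200.1 with IL-1b, and 158, 157 and 150.0 with both, so that every library with IL-22 lay below every library without it. The log2 change was -0.36 ± 0.07 with IL-22, -0.25 ± 0.07 with both and -0.33 ± 0.07 for both against IL-1b (edgeR adjusted p = 0.00186, 0.0134 and 0.00250). The second call was lost without unstimulated replicate 2 (-0.19, edgeR adjusted p = 0.0785) or replicate 3 of both cytokines (-0.23, 0.0561). Akr1c19 read 148, 144 and 129 CPM in unstimulated cultures, 113, 97.9 and 95.1 with IL-22, 143, 126 and 131 with IL-1b, and 124, 125 and 124 with both. It was lowest with IL-22 alone, where it fell by 0.46 ± 0.07 (edgeR adjusted p = 4.98e-04), and with both it was -0.17 ± 0.07 and not called (0.0959), though it passed without unstimulated replicate 3 (-0.23, 0.0395). For both against IL-22 it passed without IL-22 replicate 1 (0.37, edgeR adjusted p = 0.0488).

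Akr1c12 and Akr1c13, the most abundant pair per kb, were called in no comparison. Akr1c12 read 119.9, 134 and 132 CPM in unstimulated cultures, 136, 134 and 119 with IL-22, 143, 127 and 132 with IL-1b, and 143, 139 and 143 with both. Akr1c13 read 138, 150.0 and 156 CPM in unstimulated cultures, 153, 151 and 141 with IL-22, 160.4, 149.7 and 152 with IL-1b, and 163, 152 and 161 with both. The ranges of both genes overlapped between unstimulated and IL-22 libraries. Their promoter windows were identical at 284 bases (93.4% of the alignment), and 28.6% and 24.2% of their 50-base stretches are shared, so reads may be split between them. The Akr1c13 and Akr1c18 windows were identical at 156 bases (46.3%).

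**Figure D4:**
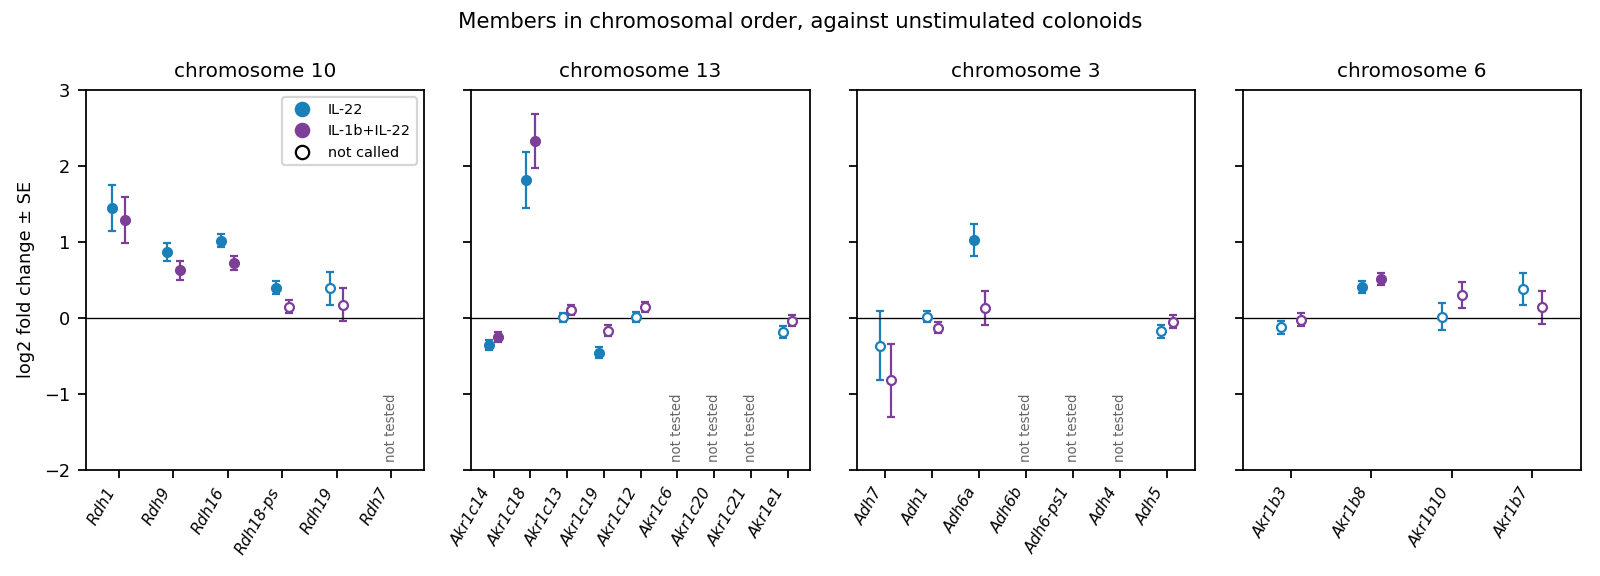
Log2 fold change and standard error of the members in 4 gene clusters, in their order along the chromosome, for IL-22 and for both cytokines against unstimulated colonoids, with open points for members not called. On chromosome 10 the points of all 5 tested Rdh genes lie above 0 and 4 passed the test with IL-22, whereas on chromosome 13 Akr1c18 rose and Akr1c14 and Akr1c19 fell.

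Of the reductases of sugars and aldehydes, Akr1b8, an aldose reductase relative of the intestine, rose. It read 97.5, 93.1 and 106 CPM in unstimulated cultures, 135, 135 and 123 with IL-22, 117, 103 and 106 with IL-1b, and 143, 126 and 154 with both, and the libraries with IL-22 lay above all others. Its log2 change was 0.41 ± 0.08 with IL-22 and 0.52 ± 0.08 with both (edgeR adjusted p = 0.00212 and 2.48e-04). Akr1b3, aldose reductase itself, read 55.8, 64.2 and 63.5 CPM in unstimulated cultures, 57.8, 57.1 and 53.2 with IL-22, 65.4, 71.3 and 66.5 with IL-1b, and 57.9, 54.7 and 67.6 with both, and was not called. Akr1a1, the general aldehyde reductase, read 168, 176 and 186 CPM in unstimulated cultures, 203, 209.5 and 184 with IL-22, 185, 181 and 169 with IL-1b, and 201, 197 and 201 with both. The libraries with both lay above all unstimulated and IL-1b libraries. It rose with both by 0.17 ± 0.06 (edgeR adjusted p = 0.0454). Leaving out unstimulated replicate 1 or 2, IL-1b replicate 1 or 2, or any 1 of the 3 libraries with both ended this call at 0.14 to 0.18 (edgeR adjusted p between 0.0561 and 0.158). It also ended with total-count scaling (0.13), DESeq2 (adjusted p = 0.0628), the trend removed (0.07, edgeR adjusted p = 0.259) and a replicate block (0.17, 0.0653).

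Akr1e1, which reduces 1,5-anhydrofructose, read 77.3, 89.1 and 87.6 CPM in unstimulated cultures, 75.8, 72.7 and 74.5 with IL-22, 103, 86.3 and 98.1 with IL-1b, and 86.4, 79.6 and 81.7 with both. It fell for both against IL-1b by 0.22 ± 0.08 (edgeR adjusted p = 0.0472), although the highest library with both was level with the lowest with IL-1b. Without unstimulated replicate 2 or 3, IL-22 replicate 2 or 3, IL-1b replicate 1 or 3, or any 1 of the libraries with both, the change was -0.25 to -0.16 and no longer passed (edgeR adjusted p between 0.0513 and 0.189). The same held with DESeq2 (adjusted p = 0.0867), without the filter (edgeR adjusted p = 0.0606) and with a replicate block (0.0695).

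Dhrs11, among the most abundant members per kb, fell with IL-22. It read 158, 159 and 153 CPM in unstimulated cultures, 113, 119.6 and 135 with IL-22, 145, 147 and 141 with IL-1b, and 126, 131 and 113 with both. Every library with IL-22 lay below every library without it. The log2 change was -0.36 ± 0.07 with IL-22, -0.34 ± 0.07 with both and -0.22 ± 0.07 for both against IL-1b (edgeR adjusted p = 0.00188, 0.00181 and 0.0265). The last of these became -0.34 with the trend removed, and its call was lost without IL-1b replicate 1 (-0.22, edgeR adjusted p = 0.0694) or 2 (-0.21, 0.0751) or replicate 3 of both cytokines (-0.17, 0.113). The remaining Dhrs genes (Dhrs1, Dhrs7, Dhrs7b, Dhrs13 and its antisense partner Dhrs13os) were not called in any comparison by edgeR, but Dhrs7b passed for both against IL-1b with total counts and with the trend removed (-0.22 and -0.21), and Dhrs1 with both against unstimulated with the trend removed (-0.19). Dhrs13 and Dhrs13os overlap on opposite strands, and the strand used in counting is not given in the sources used here.

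**Figure D5:**
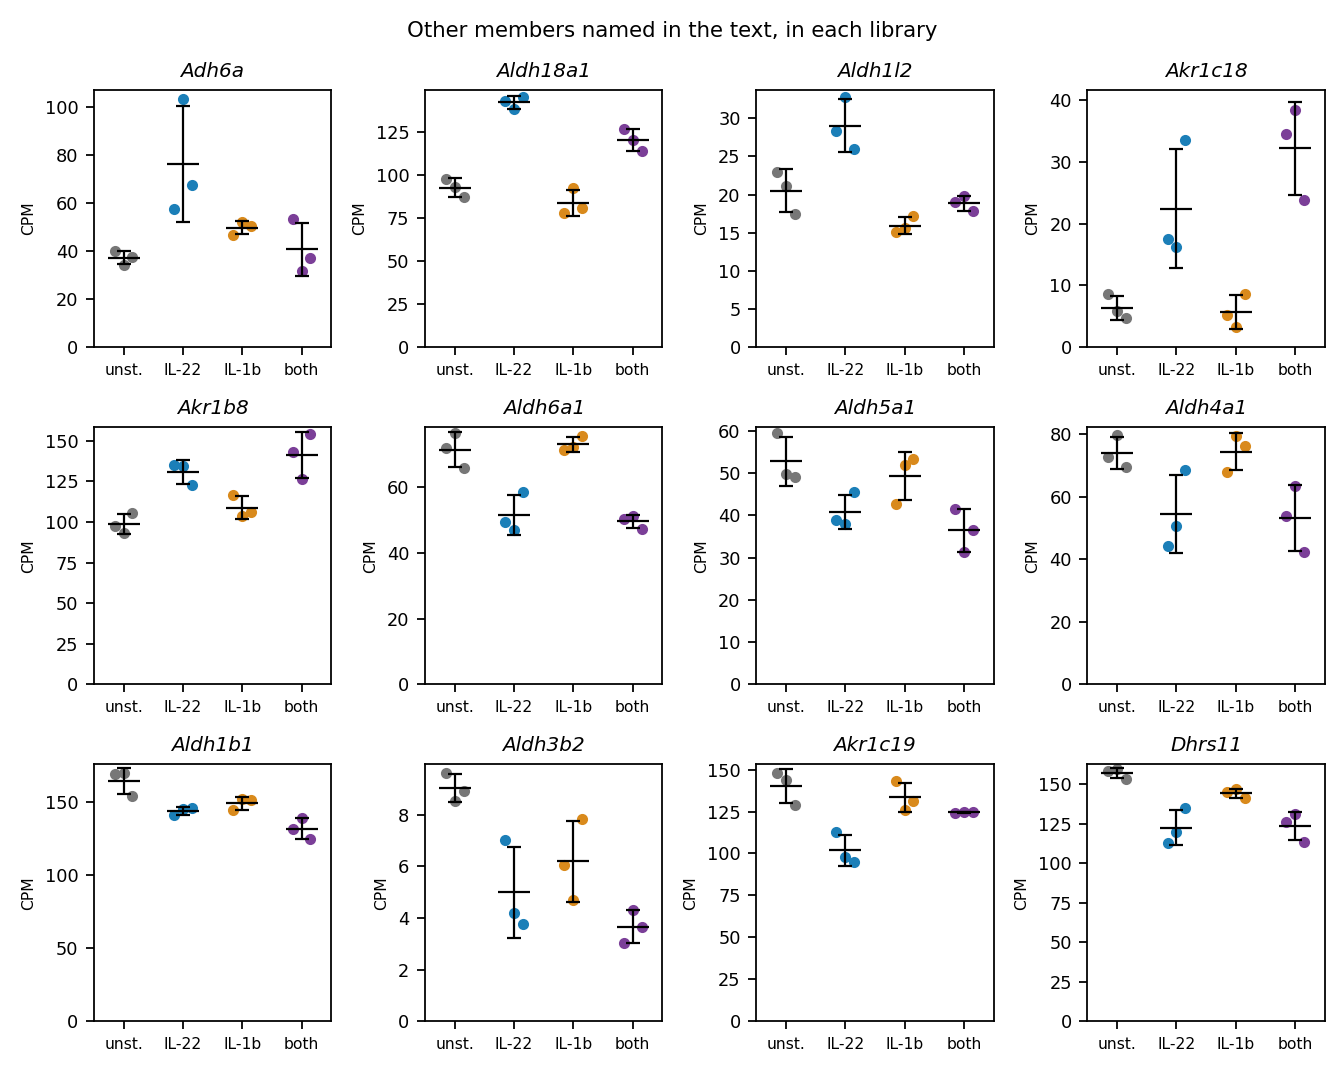
CPM of 12 further members in each library (points, replicates 1 to 3 from left to right within a group), with the mean and SD over 3 libraries in black. Adh6a and Aldh1l2 are highest in the 3 libraries with IL-22 alone, Akr1c18 and Aldh18a1 are high in all 6 libraries with IL-22, and Aldh6a1, Aldh5a1, Aldh1b1 and Dhrs11 are lower there than in unstimulated colonoids.

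Genes outside the families that carry, sense, store or break down retinoids were called with IL-22 at a share near that of all genes. Of 21 tested, 3 rose and 2 fell with IL-22 (23.8%, beside 22.2% of all genes), with a median log2 change of -0.13. With both, 3 rose and 5 fell (38.1%, beside 27%), with a median of -0.29. Among these, the calls of Dgat1 and Scarb1 were lost in some setting. Tgm2, transglutaminase 2, a known target of retinoic acid receptors, rose from 66.2 ± 8.70 CPM to 123 ± 9.07 with IL-22 and 129 ± 10.8 with both (SD, n = 3), log2 changes of 0.90 ± 0.09 and 0.96 ± 0.09 (edgeR adjusted p = 1.09e-05 and 3.98e-06). Isx, the intestinal factor that represses vitamin A uptake, rose from 158 ± 0.345 to 197 ± 5.83 CPM with IL-22, and its change of 0.31 ± 0.06 fell to 0.19 and lost its call with the trend removed (edgeR adjusted p = 0.0582). Ppard, a nuclear receptor, rose by 0.39 ± 0.06 with IL-22 (edgeR adjusted p = 4.62e-04). The 2 that fell with IL-22 were Rbp2 and Dgat1, by 0.33 ± 0.11 and 0.27 ± 0.08 (edgeR adjusted p = 0.0486 and 0.0247). The Rbp2 call was lost without any 1 library other than unstimulated replicate 1 or replicate 2 of both cytokines (-0.38 to -0.20, edgeR adjusted p between 0.0514 and 0.202). It was also lost with DESeq2 size factors (edgeR adjusted p = 0.0502), with the 6 libraries alone (0.0827) and with the DESeq2 Wald test (adjusted p = 0.0808). The Dgat1 call was lost without unstimulated replicate 2 (-0.21, edgeR adjusted p = 0.127), IL-22 replicate 1 (-0.21, 0.0966) or IL-22 replicate 2 (-0.26, 0.0759), and with the 6 libraries alone (-0.27, 0.0600). Rbp2, the retinol carrier of enterocytes, fell from 56.5 ± 8.97 to 33.9 ± 3.01 CPM with both, a log2 change of -0.73 ± 0.12 (edgeR adjusted p = 3.07e-04). Pnliprp2, a lipase, and Retsat, retinol saturase, fell with both by 1.45 ± 0.34 and 0.51 ± 0.10 (edgeR adjusted p = 0.00991 and 0.00158).

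NRF2, which controls several aldo-keto reductases, has many other targets, and these also divided. Of 29 tested genes of this list, 7 rose and 7 fell with IL-22 (48.3%, beside 22.2% of all genes), and 9 rose and 8 fell with both (58.6%, beside 27%). Not all of these calls were firm. Those of Gclm, Srxn1 and Txnrd1 with IL-22, and of Nqo1, Taldo1, Tkt, Osgin1, Cbr3 and Prdx1 with both, were lost in some setting. Removal of the abundance trend ended those of Srxn1, Txnrd1, Taldo1, Tkt and Osgin1. Hmox1, heme oxygenase 1, rose by 0.79 ± 0.10 and Slc7a11, the cystine transporter, by 0.66 ± 0.13 with IL-22 (edgeR adjusted p = 8.97e-05 and 0.00197). Gstm3, a glutathione transferase, fell by 0.95 ± 0.09, Ephx1, an epoxide hydrolase, by 1.03 ± 0.15 and Abcc2, an export pump, by 1.98 ± 0.27 (edgeR adjusted p = 3.41e-06, 2.43e-04 and 1.10e-04). Among 19 tested oxidoreductases of carbonyls, alcohols and steroids outside the families, 3 rose and 5 fell with IL-22, and 2 rose and 6 fell with both (42.1% in each). Here the calls of Sord and Me2 with IL-22, and of Cat, Acss1 and Hadh with both, were lost in some setting. Xdh, xanthine dehydrogenase, rose by 0.82 ± 0.08, and Hpgd, which inactivates prostaglandins, and Hsd11b2, which inactivates corticosterone, fell by 0.69 ± 0.07 and 0.79 ± 0.18 with IL-22 (edgeR adjusted p = 5.66e-06, 1.28e-05 and 0.00797). IL-1b alone changed 0 genes of these 3 lists.

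The measured change also varied with the level of a gene. Over all genes, the median log2 change with IL-22 was -0.11 for genes under 0.05 counts per exon base, 0.02 between 0.05 and 0.2, and 0.10 at 0.2 or more. For the 13, 22 and 16 tested members in these classes it was -0.05, -0.02 and 0.01. Of the 16 members at 0.2 or more, 8 were called in some comparison (50%), beside 44.5% of all genes at that level. Of the 35 others 18 were called (51.4%), beside 36.6% of all genes.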

How the data were processed

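RNA from 12 colonoid libraries was prepared with a strand-marking kit and deposited by the authors as 1 table of raw counts per gene symbol, and the build was mm10 per the submitters' processing notes. Not given in the sources used here are the annotation, the aligner and the counter with its settings for strand and for reads that fit several genes. Without the strand setting, reads of genes that overlap on opposite strands cannot be told apart.

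The members and gene lists were chosen with earlier results of these data known. Counts were scaled by TMM, filtered with filterByExpr and fitted with edgeR 4.0.16 (R 4.3.3, limma 3.58.1) as 1 mean per group over all 12 libraries, which leaves 8 residual degrees of freedom. Contrasts were tested by quasi-likelihood with Benjamini-Hochberg adjustment over 13987 genes and called under 0.05. The standard error of a log2 fold change is its size divided by the root of F. The script was tested on simulated data. Levels are CPM, or CPM per kb of union exon in GENCODE M21. Promoter windows came from RefSeq and were aligned with biopython 1.88. The replicate numbers are not stated to mark a shared origin, so they were not treated as pairs. Deviations of log CPM from the group mean of each gene correlated between -0.188 and 0.179 over 18 pairs of same-numbered libraries.

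Values in every library were given for up to 4 called members per family with the largest change, the 2 most abundant members per family, a set of retinoid and detoxifying enzymes, and every member called between both cytokines and a single one. The settings tried besides were the Wald test and the size factors of DESeq2 1.42.0, scaling by total counts, other filters, a replicate block, the compared libraries alone, removal of a lowess trend (span 0.3) on counts per exon base, and leaving out each library.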

Additional observations from a re-analysis of the deposited data

How the results depend on the processing

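Over 20 alternative settings, 36 of the 56 calls of a member in a comparison passed in every one, 20 were lost in some setting, and none reversed. The 56 include the call of Adh7 against IL-1b, which is given above as a description. Of 250 member and comparison pairs not called, 27 passed in some setting. Leaving out 1 library at a time gave 14 to 21 called members with IL-22, 0 to 0 with IL-1b, 14 to 20 with both against unstimulated, 12 to 19 with both against IL-1b, 0 to 1 with both against IL-22, and 0 to 0 for the interaction. Over all genes tested, calls with IL-22 were fewest without unstimulated replicate 2 (1090 higher and 881 lower). They were most numerous without IL-22 replicate 3 (1751 and 1571). For both against unstimulated, the extremes were 1317 and 1291 (without replicate 3 of both cytokines) and 2017 and 1964 (without IL-22 replicate 3). For both against IL-22, 1 member passed with DESeq2 (Adh6a), 1 without the filter (Aldh1l2) and 1 without IL-22 replicate 1 (Akr1c19). Over all genes, these settings called 27 higher and 60 lower, 21 and 47, and 19 and 44 in the same order. For the interaction 1 passed with DESeq2 (Adh6a), beside 0 genes higher and 4 lower over all genes. With the abundance trend removed, both cytokines gave 9 members higher and 12 lower against unstimulated, beside 11 and 8 without that step, and 9 and 12 against IL-1b. Over all genes, that step gave 1751 higher and 1760 lower against unstimulated, beside 1909 and 1869 without it. Against IL-1b it gave 1682 and 1644, beside 1838 and 1809. The cause of these differences was not tested. With the replicate number as a block, 18, 0, 18, 0, 17 and 0 members passed (IL-22, IL-1b and both against unstimulated, both against IL-22, both against IL-1b, interaction). Over all genes, the calls higher and lower were 1509 and 1293, 3 and 0, 1734 and 1731, 4 and 1, 1673 and 1645, and 0 and 0 in the same order. In their deviations from the group means, 2 of the 12 libraries correlated best with a library of their own number. This describes the data and does not show whether the numbers mark pairs. The 17 members under the filter have no test at this depth.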
